A study of Mus musculus with 12 samples.

Results

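The H3K4me1 ChIP-seq region lists of the male KDM6A-KO line and the male KDM6A-WT line of mouse pancreatic cancer are described here. All listed regions of these 2 libraries on the autosomes and the X chromosome were taken, 49780 in male KO and 64247 in male WT. They make up 114027 of the 313566 regions of the series, counted over the same chromosomes. The series holds 12 libraries, 11 of them with a region list, and each group has 1 library. The library without a list is the input of the female WT line. The male lines and the female KO line have no input library of their own in the series. Besides the male pair, the lists cover H3K4me1 in a female KO and a female WT line, H3K4me3, H3K27ac and H3K27me3 in the female WT line alone, and KDM6A and MLL4 in both female lines. The cells were grown in F12/DMEM with EGF and received no treatment. Every label, WT included, gives the cell type as a line set up from a K6A-null murine pancreatic tumour, and KO and WT are told apart by the title and the genotype field. How the WT lines came to be WT, and whether each line is 1 clone, is not given in the sources used here. The defining markers of the cells could not be checked, since the lists hold no expression and name no gene.

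KDM6A removes methyl groups from H3K27 and is also a subunit of the complexes built around MLL3 and MLL4, the methyltransferases that place H3K4me1. H3K4me1 lies over enhancers and over the flanks of promoters, while H3K4me3 lies over the promoters themselves, H3K27ac over active elements and H3K27me3 over repressed ones. The KDM6A gene is X-linked, and male cells carry a Y-linked relative, UTY. Only regions on the autosomes and the X chromosome were kept here, so the Y chromosome was not examined.

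The male KO regions covered 197 Mb and the male WT regions 259 Mb, a KO over WT ratio of 0.759. The KO list held 10809880 reads in its regions and the WT list 14411335, a ratio of 0.750. The lists were alike in their medians, with 2800 bp in KO and 3000 bp in WT, and 44.1 reads per kb in KO and 45.6 in WT. The longest region measured 81800 bp in KO and 102200 bp in WT. Bases inside both lists amounted to 137 Mb, which is 69.9% of the KO length and 53.0% of the WT length. Total library depth, the control and the calling threshold are not given in the sources used here, so their part in the smaller KO list was not tested. With 1 library per group no test between the lines was possible. Brackets hold exact Clopper-Pearson 95% intervals over regions, which cover counting error only. Regions of 1 library are not replicates of a line.

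More regions of the WT list lacked a counterpart than regions of the KO list did, and in both lists short regions and regions with few reads lacked one most often. Each list was sorted into 5 classes of about equal number by length or by reads. A region counted as absent when no base of it lay in a region of the other list. Of the KO regions, 12637 of 49780 were absent from WT, 25.4% [25.0 to 25.8]. Of the WT regions, 26971 of 64247 were absent from KO, 42.0% [41.6 to 42.4]. With the WT list cut by reads to as many regions as the KO list, 34.1% of KO regions and 36.0% of WT regions were absent, so the shares lay close together at equal list size. These counts are of all members, so the shares are also the background for every class below.

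Absence fell with region length in both lists. Since 1 shared base was enough for a counterpart, the rule itself favours long regions, and its part was not tested. Among KO regions, 46.7% of the shortest class and 4.71% of the longest class were absent from WT. Among WT regions, 57.3% of the shortest class and 17.4% of the longest class were absent from KO. Classes by reads gave the same order, with 49.8% and 3.27% for KO regions and 63.3% and 15.4% for WT regions in the lowest and the highest class. Above 20 kb, 0 of 444 KO regions were absent from WT, which allows a share of up to 0.827%, and 24 of 592 WT regions were absent from KO, 4.05%. Isolated regions were absent more often. KO regions more than 20 kb from the next KO region were absent from WT in 37.3% of cases, and those within 1 kb of it in 19.8%. For WT regions the shares absent from KO were 50.8% and 31.6%.

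**Figure D1:**
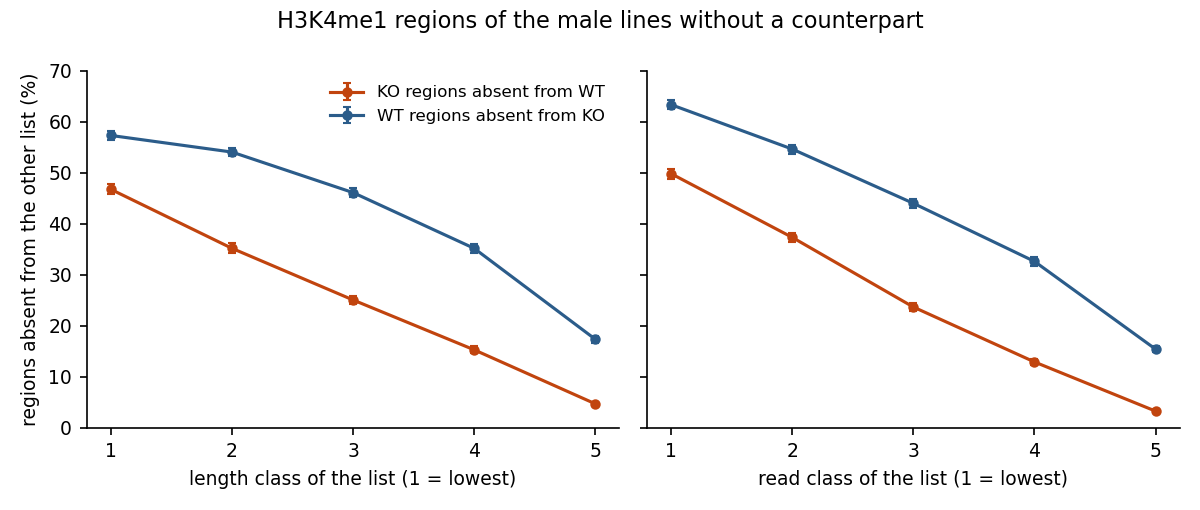
Percent of H3K4me1 regions absent from the other male list, by class of region length (left) and of reads (right), 5 classes of about equal number each, for KO regions (orange) and WT regions (blue); bars are exact 95% intervals over regions. Both curves fall with size, and the WT curve lies above the KO curve in every class; for the longest regions the share was 4.71% in KO and 17.4% in WT.

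The promoter and enhancer marks of the female WT line separated kept from absent WT regions far more than kept from absent KO regions. These marks were not listed in the male lines, so the female lists stand for promoters and enhancers throughout. Of KO regions that overlapped an H3K4me3 region, 17.1% were absent from WT, and of those that did not, 33.3%. For WT regions the shares absent from KO were 4.45% with H3K4me3 and 61.0% without. KO regions with both H3K4me3 and H3K27ac were absent from WT in 13.3% of cases, those with H3K27ac alone in 10.9%, those with H3K4me3 alone in 46.9% and those with neither in 42.1%. WT regions with both marks were absent from KO in 596 of 19722 cases, 3.02%, and those with neither in 24298 of 34907 cases, 69.6%. WT regions with H3K27ac alone, the pattern of an active enhancer away from a promoter, lay between at 22.1%, and those with H3K4me3 alone at 19.7%. KO regions on the repressive mark H3K27me3 were absent from WT in 37.2% of cases, against 23.8% off it. WT regions on H3K27me3 were absent from KO in 56.9% of cases, against 39.5% off it.

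For WT regions this split held at matched reads. In the lowest class of KO regions by reads, 48.6% of those on H3K4me3 and 50.2% of those off it were absent from WT, and in the highest class 2.12% and 7.41%. In the lowest class of WT regions by reads, 8.46% of those on H3K4me3 and 77.1% of those off it were absent from KO, and in the highest class 2.93% and 32.8%. The split of WT regions by H3K4me3 was thus present in the class with the most reads as well as in the class with the fewest.

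The male KO over WT ratio of covered length fell with distance to H3K4me3 in an unbroken order. On H3K4me3 the KO regions covered 63.6 Mb and the WT regions 55.5 Mb, a ratio of 1.15. Within 1 kb of an H3K4me3 region the KO list covered 31.3 Mb and the WT list 28.7 Mb, a ratio of 1.09. Beyond that the WT list was the longer. The ratio was 0.874 at 1 to 2 kb, 0.708 at 2 to 5 kb, 0.583 at 5 to 20 kb and 0.513 at 20 to 100 kb. More than 100 kb from H3K4me3 the KO list covered 14.6 Mb and the WT list 30.8 Mb, a ratio of 0.475. As a result 32.4% of the KO length and 21.4% of the WT length lay on H3K4me3. The ratio was higher on H3K4me3 than off it on 20 of 20 chromosomes, between 1.02 and 1.69 on the mark and between 0.477 and 1.17 off it. Over the whole genome the ratio off the mark was 0.653. The female KO over WT ratio was 1.02 on H3K4me3 and 0.313 beyond 100 kb. The male and female ratios were not tested against each other.

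The share of length that the other line also covered varied more with this distance for WT than for KO. Of the KO length, 81.4% on H3K4me3 and 68.7% within 1 kb also lay in WT regions. Between 1 and 100 kb the share was nearly level, at 64.5%, 65.3%, 65.6% and 63.1% in the successive classes, and beyond 100 kb it was 53.6%. Of the WT length, 93.3% on H3K4me3 and 75.0% within 1 kb also lay in KO regions. It fell in every further class, to 56.3%, 46.3%, 38.3%, 32.4% and 25.5%. Beyond 2 kb from H3K4me3, most KO length was therefore shared and most WT length was not.

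Regions of the 2 lists that overlapped were joined into loci, and at loci listed in both lines the covered length per locus was set against each other. Most loci differed in size by less than a factor of 2. Of 33575 loci, 4056 were smaller in KO by a factor of 2 or more, 12.1% [11.7 to 12.4], and 2383 were larger in KO by that factor, 7.10% [6.83 to 7.38]. The median log2 of KO over WT covered length was -0.03, and 5% to 95% of loci ran from -1.49 to 1.14. KO was the shorter at 50.3% of loci, the longer at 44.1% and equal at 5.58%. In the upper part of both lists by reads 8.48% were smaller and 4.43% larger, and with a factor of 1.5 the shares were 23.1% and 16.4%.

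Loci on H3K4me3 were on balance slightly larger in KO and the other loci smaller. The 18907 loci with H3K4me3 had a median log2 of 0.05, with 8.32% larger in KO and 7.99% smaller. The 14668 loci without it had a median of -0.21, with 5.52% larger and 17.4% smaller. Loci with H3K27ac but no H3K4me3, 5335 in number, had a median of -0.22. The median with H3K4me3 was the higher on 20 of 20 chromosomes. Loci were also sorted into 4 classes by KO plus WT covered length, and the order was the same in each. The medians were 0.19 with and -0.13 without H3K4me3 in the shortest class. In the longest class both were below 0, -0.05 with and -0.28 without it. Within loci listed in both lines, KO regions held 95.7% of the WT length on H3K4me3 and 67.6% of it off the mark. At loci smaller in KO these shares were 77.9% and 28.2%.

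**Figure D2:**
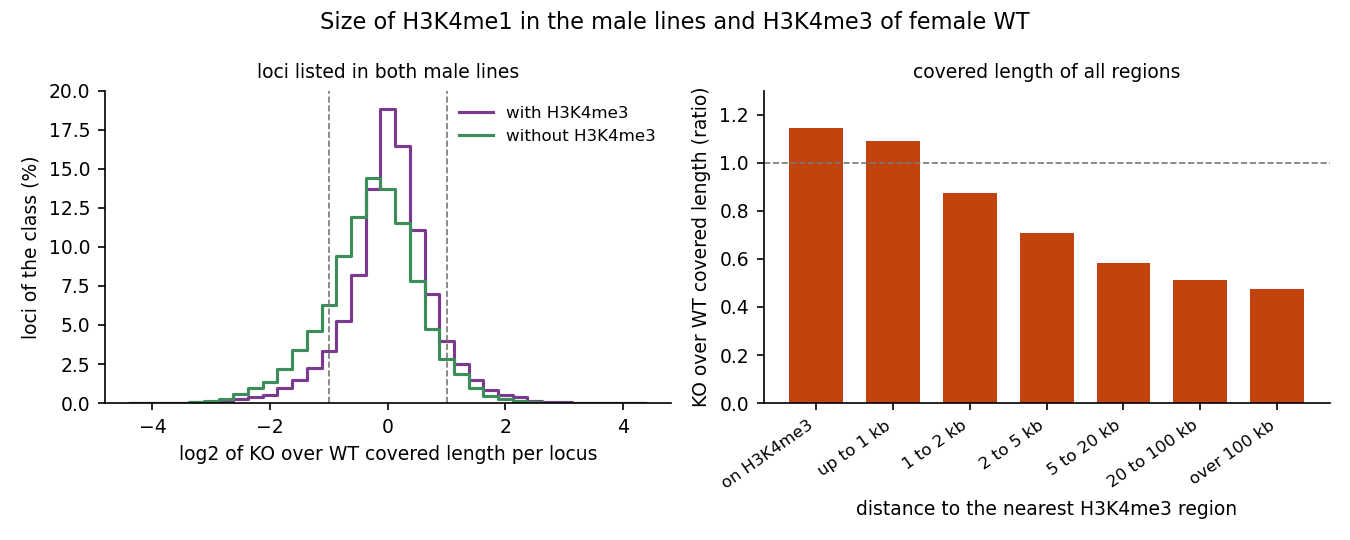
Left, distribution of the log2 ratio of KO over WT covered length at loci listed in both male lines, in percent of the loci with (purple) and without (green) H3K4me3 of the female WT line; dashed lines mark a factor of 2. Right, ratio of KO over WT covered length of all regions by distance to the nearest H3K4me3 region, falling from 1.15 on H3K4me3 to 0.475 beyond 100 kb.

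The borders showed how the size changed. At 28193 loci 1 KO region met 1 WT region, and 1.98% of these had identical borders. The KO region lay inside the WT region at 37.7%, the WT region inside the KO region at 33.5%, and both borders had shifted the same way at 26.8%. The median border shift was 400 bp, which is 2 of the 200-bp steps on which all borders lie. With H3K4me3, the KO region lay inside at 29.6% and the WT region inside at 41.1% of loci. Without it the shares were 46.5% and 25.3%. Between the lists, region length had a Spearman correlation of 0.52 and reads per kb one of 0.41 over these loci, as a description.

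The 3 loci below lost the most covered length in KO by the rule for named regions, with all positions in mm9. At chromosome 8, 108790401 to 108865000, KO held 27.4 kb in 6 regions and WT 74.4 kb in 1 region, so 47 kb were lost. The KO regions met all 4 of its H3K4me3 regions. At chromosome 10, 76571601 to 76623600, KO held 15.4 kb in 4 regions and WT 52 kb in 1, and KO met all 3 H3K4me3 regions. At chromosome 8, 126752801 to 126791600, KO held 2.6 kb and WT 38.8 kb, each in 1 region, and KO met 1 of the 2 H3K4me3 regions there.

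At the 3 largest gains KO listed fewer regions than WT over a greater length. At the first, the KO region ran from -20.4 to 20.4 kb around the locus centre. The WT regions there lay between -6 and 15.2 kb, so the KO region also reached beyond them. At chromosome 3, 52842601 to 52883400, KO held 40.8 kb in 1 region and WT 16 kb in 3 regions, and KO met both H3K4me3 regions where WT met 1. At chromosome 3, 102265601 to 102313600, KO held 47.6 kb in 2 regions and WT 23 kb in 4. At chromosome 4, 120463401 to 120500600, KO held 37.2 kb in 1 region and WT 13.4 kb in 2, and KO met 3 and WT 2 of the H3K4me3 regions.

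Regions were split by either list at much the same rate. Of KO regions met by WT, 3178 of 37143 met 2 or more WT regions, 8.56% [8.27 to 8.85]. Of WT regions met by KO, 3002 of 37276 met 2 or more KO regions, 8.05% [7.78 to 8.33]. Most were cut into 2 pieces, 2777 of the KO regions and 2578 of the WT regions. The order of the 2 shares was not stable. With the WT list cut to as many regions as the KO list it was 6.82% for KO regions and 9.33% for WT regions, and with neighbours within 1 kb joined it was 5.80% and 6.75%.

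Splitting rose with length in both directions. KO regions split in WT had a median of 8000 bp against 3000 bp for unsplit ones, and WT regions split in KO one of 9400 bp against 3200 bp. Up to 3 kb, 0.871% of KO regions and 0.916% of WT regions were split. At 6 to 12 kb the KO regions were split in 25.1% of cases and the WT regions in 18.2%.

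Gaps were short, and they differed in where they lay. Gaps that KO left inside WT regions numbered 3568, with a median of 600 bp, and gaps that WT left inside KO regions numbered 3701, with the same median. Of the gaps left by KO, 856 touched H3K4me3, 24.0% [22.6 to 25.4], and of those left by WT, 39.2% [37.6 to 40.8]. By length, H3K4me3 made up 10.3% of the gaps left by KO and 27.5% of the WT regions that held them. For the gaps left by WT these shares were 25.4% and 36.7%. Gaps over 1 kb touched H3K4me3 in 14.3% of cases where KO left them and in 30.2% where WT left them. So gaps of both kinds held less H3K4me3 than the regions around them, more so in KO.

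The most divided KO region lay at chromosome 5, 66927401 to 67009200, at 81.8 kb and 6992 reads the longest of the KO list, in 8 WT pieces that met all 7 of its H3K4me3 regions. The KO regions at chromosome 3, 95886801 to 95946000, and chromosome 4, 154853001 to 154915600, each lay in 7 WT pieces. The most divided WT region lay at chromosome 6, 94083201 to 94185400, at 102.2 kb and 8555 reads the longest of the WT list, and KO listed it in 12 pieces that met all 4 H3K4me3 regions in it. Next came chromosome 5, 91127401 to 91188200, in 9 pieces, and chromosome 4, 45462201 to 45541400, in 7 pieces that met all 8 H3K4me3 regions. The longest region of each list was thus also the one the other list divided the most.

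**Figure D3:**
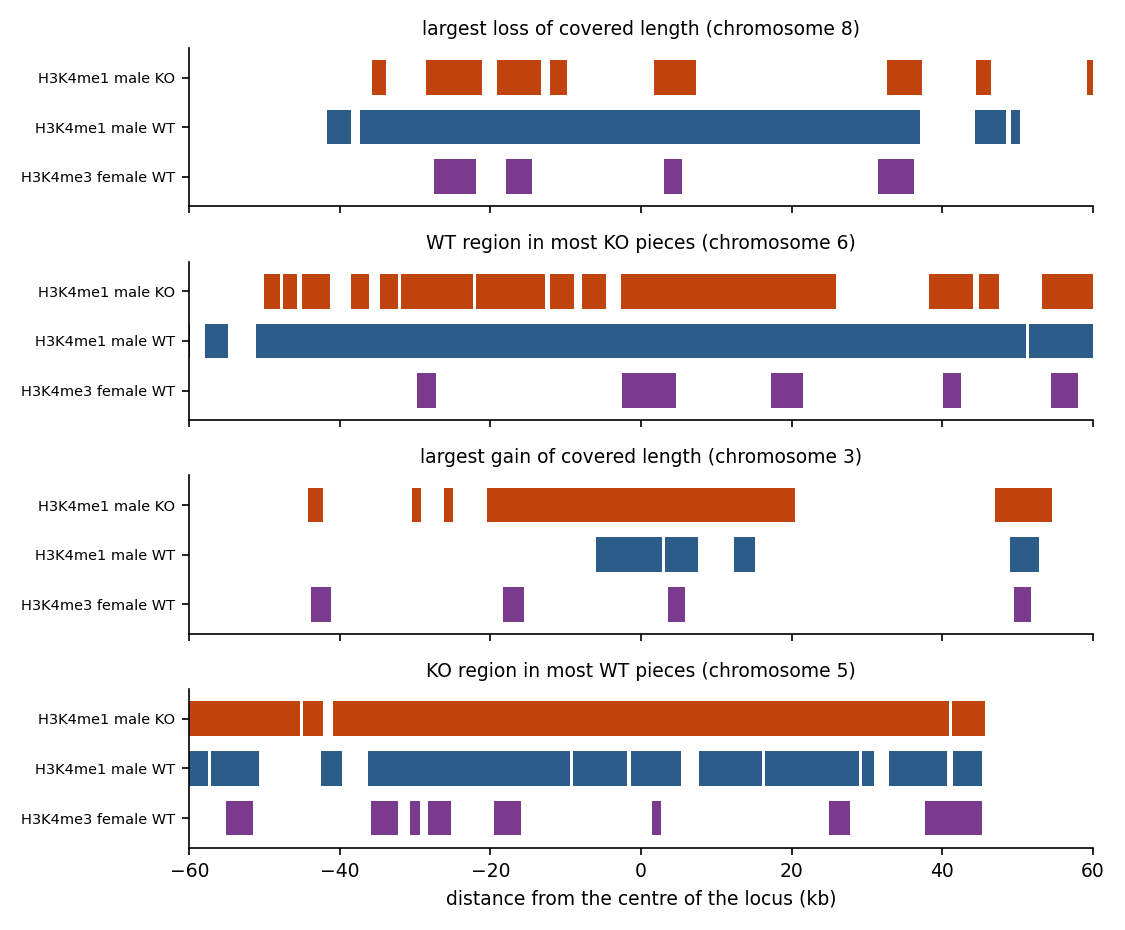
Listed regions of H3K4me1 in male KO (orange) and male WT (blue) and of H3K4me3 in female WT (purple) at 4 loci, plotted by distance from the locus centre in kb. The chromosome 8 locus keeps 6 KO regions that meet all 4 H3K4me3 regions, the chromosome 6 WT region is cut into 12 KO pieces, and the chromosome 3 and chromosome 5 loci show 1 KO region over 3 and over 8 WT regions.

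KO-only regions lay on promoter marks far more often than WT-only regions. Of the 12637 KO-only regions, 4179 overlapped H3K4me3, 33.1% [32.2 to 33.9], and of the 26971 WT-only regions 960 did, 3.56% [3.34 to 3.79]. KO regions shared with WT did so in 54.4% of cases and WT regions shared with KO in 55.3%. Unshared regions of both lists thus lay on H3K4me3 less often than shared ones. Over all regions, 24399 of 49780 in KO and 21572 of 64247 in WT overlapped H3K4me3, so the lists also differed as a whole. The KO-only share was the higher on 20 of 20 chromosomes, with a lowest KO-only value of 16.3% and a highest WT-only value of 9.23%. In the female pair the shares were 30.4% of KO-only and 9.90% of WT-only regions. In the upper part of both lists by reads the shares were 61.0% of KO-only and 14% of WT-only regions, and with the upper part of the H3K4me3 list 20.8% and 0.890%. Requiring 50% coverage for a counterpart gave 38.1% and 8.38%. At the greatest distances the order turned, as 18.3% of KO-only and 26.0% of WT-only regions lay more than 100 kb from H3K4me3.

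KO-only regions were small. Their median was 2000 bp and 75 reads, that of WT-only regions 2400 bp and 96 reads, and that of KO regions shared with WT 3200 bp and 155 reads. The nearest WT region lay at a median of 12.2 kb from a KO-only region, and 32.0% had one within 5 kb. KO-only regions on H3K4me3 overlapped H3K27ac in 68.8% of cases and H3K27me3 in 26.0%. KO-only regions off H3K4me3 overlapped them in 9.14% and 13.6%. KO regions on H3K4me3 that WT shared overlapped H3K27ac in 92.7% and H3K27me3 in 12.1% of cases. WT-only regions on H3K4me3 overlapped H3K27ac in 62.1% and H3K27me3 in 28.1%, so unshared regions of either list carried less of the active and more of the repressive mark than shared KO regions. Many had no counterpart in the female lines, as 7279 KO-only regions, 57.6%, met neither female H3K4me1 list, and 13215 WT-only regions, 49.0%, met neither. Shared KO regions met neither in 10.6% of cases. KO-only regions met the female KO list in 29.6% and the female WT list in 26.2%, and WT-only regions met them in 11.0% and 46.8%.

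The KO-only regions with the most reads came from both settings. On H3K4me3 the first lay at chromosome 8, 80030001 to 80041200 (11.2 kb, 1012 reads), followed by chromosome 15, 57589801 to 57602000 (12.2 kb, 956 reads), and chromosome 14, 51544801 to 51560000 (15.2 kb, 928 reads), which met 3 H3K4me3 regions. Another chromosome 14 region, 54867601 to 54882200 (14.6 kb, 866 reads), held 8800 bp of H3K4me3. The region at chromosome 10, 45176601 to 45189200 (12.6 kb, 786 reads), was in no female H3K4me1 list.

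The KO-only region with the most reads of all had no H3K4me3 region within 5 kb and lay at chromosome 15, 25794401 to 25811800 (17.4 kb, 1252 reads), 5.6 kb from the nearest H3K4me3 region. The next one without H3K4me3 within 5 kb was chromosome 14, 12439801 to 12451200 (11.4 kb, 878 reads), at 34.8 kb. Regions at chromosome 3, 152423601 to 152435400 (773 reads), chromosome 8, 63236001 to 63246200 (691 reads), and chromosome 13, 73998001 to 74006400 (637 reads), were in no female H3K4me1 list. They lay 45 kb, 91.6 kb and 12.4 kb from H3K4me3, in that order.

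The leading WT-only regions were larger. They lay at chromosome 11, 81813801 to 81856400 (42.6 kb, 3920 reads), with 2 H3K4me3 regions, and at chromosome 1, 74068601 to 74119800 (51.2 kb, 3727 reads), with 3. The next 2 were neighbours on chromosome 7, at 81511201 to 81549200 (38 kb, 3047 reads) and 81549801 to 81590800 (41 kb, 2686 reads), both over 100 kb from H3K4me3. The fifth, at chromosome 10, 57839601 to 57872600 (33 kb, 2319 reads), lay 4.4 kb from H3K4me3. WT-only regions on H3K4me3 also included chromosome 7, 81688201 to 81711000 (1925 reads), chromosome 19, 10296601 to 10316400 (1738 reads), and chromosome 10, 39775601 to 39806800 (1711 reads).

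Seen from the H3K4me3 regions of female WT, KO covered more of the mark than WT did. The female WT list holds 24492 H3K4me3 regions. KO regions met 90.8% of them and WT regions 82.9%, so 2957 were met by KO alone, 1034 by WT alone, 19282 by both and 1219 by neither. In the female pair the order was the opposite: KO met 77.8% and WT 81.1%, with 1915 met by KO alone and 2735 by WT alone. By length, 86.1% of the H3K4me3 bases lay in KO and 75.1% in WT regions, 10.9 percentage points more in KO. The male difference was positive on 20 of 20 chromosomes, from 2.08 to 36.0 points. In the female pair KO covered 76.2% and WT 74.8% of these bases.

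The difference in bases covered grew with the density of H3K4me3, sorted by reads per kb into 5 classes of about equal number. In the lowest class KO covered 84.9% and WT 85.0% of the bases, and in the second 86.6% and 83.5%. In the third class KO covered 86.0% and WT 77.1%, in the fourth 87.4% and 72.6%, and in the highest 85.0% and 69.5%. KO coverage thus stayed within a narrow range over the classes while WT coverage fell. In the highest class 348 H3K4me3 regions were met by KO alone and 12 by WT alone, in the third 818 and 204, and in the lowest 495 and 418. By regions met the difference did not grow throughout. KO met 89.9% and WT 77.4% in the third class, and 99.4% and 92.6% in the highest. In the female pair the difference in bases covered, KO minus WT, was -6.87 points in the lowest class and 5.43 in the highest.

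Among classes by mark, H3K4me3 regions with H3K27me3 but no H3K27ac showed the widest difference. These 2067 regions were covered to 71.4% in KO and 43.1% in WT, 28.3 points apart, with 742 met by KO alone and 190 by WT alone. The difference was positive on 20 of 20 chromosomes, from 7.87 to 59.8 points, and without chromosome 14 the values were 71.6% and 44.0%. The 18435 regions with H3K27ac and no H3K27me3 were covered to 87.9% in KO and 78.3% in WT. The 2133 with neither mark were covered to 63.2% in KO and 44.3% in WT, 18.9 points apart. The 1857 with both marks were 13.1 points apart, less than those with neither. In the female pair the difference was negative in the class with H3K27me3 alone, at -5.83 points, in that with both marks and in that with neither.

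Around the centres of H3K4me3 regions the profiles differed near the centre in the highest density class and in the flanks in the lowest. At the centres of the highest density class, 70.5% of positions lay in a KO region and 54.6% in a WT region, and 1 kb to the right 87.8% in KO and 69.9% in WT. This dip at the centre with higher flanks was seen in both lines. At 6 kb the values were 24.3% in KO and 25.0% in WT. In the lowest class there was no dip, with 82.3% in KO and 80.7% in WT at the centre. There KO was the lower in the flanks, at 43.6% against 52.5% in WT at 2 kb, and 27.2% against 35.3% at 6 kb.

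**Figure D4:**
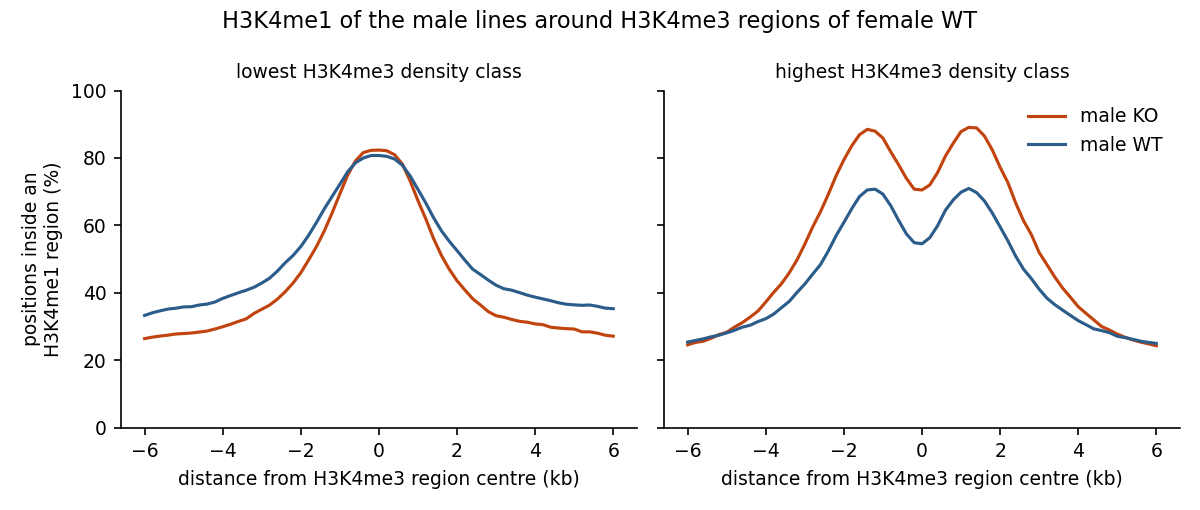
Percent of positions inside an H3K4me1 region of male KO (orange) or male WT (blue), by distance in kb from the centre of H3K4me3 regions of the female WT line, for the lowest (left) and highest (right) class of H3K4me3 reads per kb. On the right KO lies above WT near the centre, 70.5% against 54.6%, and on the left the lines meet at the centre and KO lies below WT at 2 kb.

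Loci listed in 1 line alone stood in runs along the chromosomes, longer ones in WT. A run is a stretch of successive loci listed in the same line alone. KO-alone loci formed 8016 runs, with 44.4% of the loci standing singly, 28 runs of 10 or more loci and a longest run of 21. WT-alone loci formed 12525 runs, with 25.8% standing singly, 206 runs of 10 or more and a longest run of 64. The WT list also holds more regions, and the part of that in the run lengths was not tested.

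The longest KO runs lay at chromosome 14, 9497601 to 11050400 (21 loci), chromosome 17, 69731001 to 71034000 (18 loci, 28 H3K27me3 regions), and chromosome 14, 11530801 to 12749000 (18 loci). The first held 2 female KO and 0 female WT H3K4me1 regions, the second 4 and 13, and the third 0 and 11, so the female WT line listed more in 2 of the 3. The longest WT run covered chromosome 7, 80841001 to 82518400, with 64 loci and 391.8 kb of H3K4me1, none of it in KO. It held 55 H3K27me3 regions, and 0 H3K4me1 regions of the female KO line against 36 of the female WT line. It includes the neighbouring WT-only regions named above. The next ran over chromosome 5, 131298801 to 133956400, with 55 loci, 0 H3K27me3 regions, and 0 female KO and 21 female WT H3K4me1 regions. The third, chromosome 2, 69903201 to 70469000, held 43 loci, 27 H3K27me3 regions, and 1 female KO and 18 female WT regions. In all 3 WT runs the female KO line listed 1 region or none.

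Chromosome 14 stood apart from the rest of the genome. The KO over WT covered length was above 1 on 2 of 20 chromosomes, 1.27 on chromosome 14 and 1.11 on chromosome 3, and lowest on chromosome 1 at 0.572. On chromosome 14, 51.1% of KO regions were absent from WT, against 14.3% on chromosome 7, the lowest. Over all 20 chromosomes, WT regions were absent from KO in 32.0% to 50.6% of cases. Bins of 5 Mb were kept where both lists together covered at least 200 kb, and the bin values below are of kept bins alone. On chromosome 14 the ratio was above 1 in every kept bin beyond 40 Mb, a point chosen after the values were seen. There 13 of 13 kept bins were above 1, between 1.26 and 4.43, with 5.09 Mb covered in KO and 3.18 Mb in WT. Before it, 1 of 7 kept bins was above 1, with 2.39 Mb in KO and 2.74 Mb in WT. That bin, at 10 to 15 Mb, had 223.2 kb in KO and 117.6 kb in WT, a ratio of 1.90, and parts of both chromosome 14 runs of KO-alone loci lay in it. The bin at 50 to 55 Mb held the highest ratio of all 470 kept bins, 316.6 kb in KO and 71.4 kb in WT. The lowest, 0.224, was on chromosome 4 at 95 to 100 Mb, with 86.4 kb in KO and 385.6 kb in WT.

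Reads per kb moved with these ratios. At loci where 1 KO region met 1 WT region, the median log2 of KO over WT reads per kb, less the median of all such loci, was 0.22 on chromosome 14 and -0.10 on chromosome 1. From 40 Mb on chromosome 14 it was between 0.15 and 0.51 in all 13 kept bins. Over the 20 chromosomes the covered ratio and this read ratio had a Spearman correlation of 0.90, given as a description, since both come from the same 2 libraries. More copies of a chromosome and more of the mark on it cannot be told apart from these lists. Without chromosome 14 the share of KO regions absent from WT was 24.3%.

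**Figure D5:**
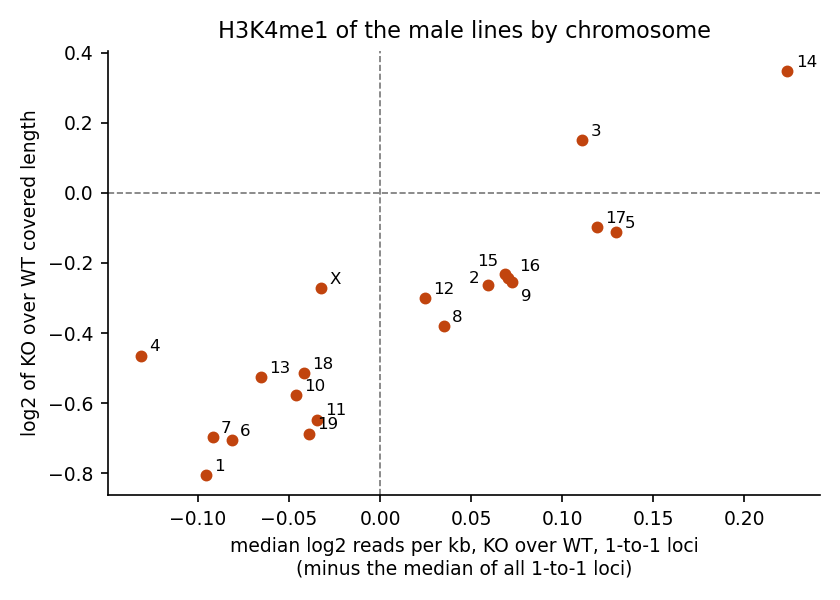
Log2 of KO over WT covered length (vertical) against the median log2 of KO over WT reads per kb at 1-to-1 loci, less the median of all such loci (horizontal), with 1 point per chromosome, labelled by its number or letter. The points rise together, and chromosomes 3 and 14 alone lie above 0 on the vertical axis.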

How the data were processed

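Chromatin immunoprecipitation with sequencing was carried out in the lines above, with 1 library per group, and the labels' antibody, title and genotype gave the groups. The submitters' processing notes name SICER 1, Bowtie 1.1.2 and build mm9 of the mouse, with no stated role. The deposited lists hold a position and a whole number per region, taken as the count of reads in it. No header names that column. The control, the threshold and the depth of each library are not given in the sources used here. Absence from a list is absence of a call, not of signal.

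Overlaps of at least 1 bp were counted in pandas 2.3.3, numpy 2.4.6 and scipy 1.17.1 under Python 3.11.15, checked against bedtools 2.31.1 and tested on simulated data. Figures were drawn with matplotlib 3.10.9. Positions count from 1. No annotation or genome of this build was used, so no gene and no sequence is given. Named regions are those with the most reads per class, the largest gains and losses of covered length, the most pieces and the longest runs. The members, classes and alternatives were chosen with earlier results of these data known, and the alternatives on chromosome 14, on H3K4me3 regions met and on covered length were added after seeing the data.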

Additional observations from a re-analysis of the deposited data

Results flagged for a closer look

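Set against the female pair, the male pair went the other way in 26 values of 5 measures, and none of these differences was tested. These 26 were picked because they went opposite ways, and the other values compared went the same way in both pairs. For covered length, 3 of 20 chromosomes went opposite ways. Some of the 26 rest on a small difference, such as -0.0464 points of H3K4me3 bases on chromosome X in the female pair. Each pair has 1 KO and 1 WT library. The KO over WT covered length was 1.11 in the male and 0.644 in the female pair on chromosome 3, 1.27 and 0.665 on chromosome 14, and 0.925 and 1.01 on chromosome 5. The median log2 of KO over WT covered length at loci listed in both lines was -0.03 in the male and 0.06 in the female pair. Loci larger in KO less loci smaller in KO made -4.98 percentage points of loci in the male and 1.02 in the female pair.

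The coverage of H3K4me3 bases, KO minus WT, was 3.15 points in the male and -6.46 in the female pair in the second of 5 classes of H3K4me3 density, and 8.85 and -1.98 in the third. The signs agreed in the lowest class, at -0.047 and -6.87, in the fourth, at 14.8 and 5.76, and in the highest, at 15.5 and 5.43. In both pairs the difference was higher in the fourth and highest classes than in the rest. At H3K4me3 regions with H3K27me3 but no H3K27ac it was 28.3 points in the male and -5.83 in the female pair, at those with both marks 13.1 and -2.57, and at those with neither 18.9 and -7.01. By chromosome it was 21.0 in the male and -0.610 in the female pair on chromosome 3, 6.10 and -3.79 on chromosome 4, 5.35 and -5.64 on chromosome 10, and 15.9 and -4.51 on chromosome 12. On chromosome 15 it was 9.12 in the male and -17.9 in the female pair, on chromosome 18 10.9 and -4.55, on chromosome 19 3.01 and -8.97, and on chromosome X 17.9 and -0.0464.

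The share of H3K4me3 regions met, KO minus WT, was 7.85 points in the male and -3.35 in the female pair over all regions. It was 1.57 in the male and -6.45 in the female pair in the lowest density class, 5.84 and -7.17 in the second and 12.5 and -4.10 in the third. With H3K27ac but no H3K27me3 it was 4.24 in the male and -2.31 in the female pair, with H3K27me3 but no H3K27ac 26.7 and -5.71, with both 10.9 and -7.00, and with neither 18.2 and -6.84. The H3K4me3, H3K27ac and H3K27me3 lists come from the female WT line, which is also the WT side of the female pair but not of the male pair.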

How the results depend on the processing

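Regions of WT absent from KO stayed more frequent than the reverse, smaller loci than larger ones, KO-only than WT-only regions on H3K4me3, and H3K4me3 met by KO than by WT, under every alternative run for each, and so did the covered ratio on against off H3K4me3. The order of the split shares held in 3 of 5. With the upper part of both H3K4me1 lists by reads, KO absent was 29.0% and WT absent 44.7%, smaller loci 8.48% and larger 4.43%, KO split 7.21% and WT split 6.89%, KO-only on H3K4me3 61.0% and WT-only 14%, gaps on H3K4me3 19.9%, H3K4me3 met by KO 69.6% and by WT 62.3%, and the covered ratio 1.19 on and 0.626 off H3K4me3. With neighbours within 1 kb joined, KO absent was 24.6%, smaller loci 14.7%, larger 8.70%, KO split 5.80%, WT split 6.75%, KO-only on H3K4me3 28.2%, gaps on H3K4me3 17.4% and the ratio off H3K4me3 0.651. On autosomes alone KO absent was 25.0%, KO-only on H3K4me3 32.2%, H3K4me3 met by KO 91.3% and by WT 83.8%, and the ratio 1.14 on and 0.652 off. Requiring 50% coverage gave 30.6% KO absent, 49.0% WT absent, and 38.1% of KO-only and 8.38% of WT-only regions on H3K4me3. A factor of 1.5 gave 23.1% smaller and 16.4% larger. With the upper part of the H3K4me3 list, KO-only was 20.8%, WT-only 0.890%, gaps 20.7%, met by KO 97.8% and by WT 88.4%, and the ratio 1.18 on and 0.683 off. With the WT list cut to the number of KO regions, KO absent was 34.1%, WT absent 36.0%, smaller 13.7%, larger 4.97%, KO split 6.82%, WT split 9.33%, KO-only on H3K4me3 37.7%, WT-only 3.99%, H3K4me3 met by WT 75.9%, and the ratio 1.22 on and 0.720 off. Without chromosome 14 KO absent was 24.3%, H3K4me3 met by WT 83.7%, and the ratio 1.13 on and 0.641 off. The cause of these shifts was not tested. No paired analysis was possible because the male pair has 1 KO and 1 WT library, and all labels carry the same replicate number. A fit over the male and female pairs with sex as a block was not run. Leaving out a replicate was not possible either. Depth and threshold, not given in the sources used here, limit every statement on absence.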
